A study of Homo sapiens with 6 samples.

Results

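Genes of mitosis and of the kinetochore, the protein assembly that ties a chromosome to the spindle, were followed in Caco-2 cells, a line established from a human colon adenocarcinoma. The 52 genes were taken by name: cyclins and kinases of the G2/M transition, kinetochore and spindle proteins, kinesins, condensin subunits and cytokinesis factors. All 52 are among the 16781 genes of the deposited table, and all 52 passed the filter on low counts. The study sequenced polyadenylated RNA in 3 libraries in which CBS, a gene of hydrogen sulfide and cysteine synthesis, had been knocked out stably with CRISPR/Cas9 (CBS KO), and in 3 libraries of wild-type cells (WT). For the knockout, a lentiviral vector with Cas9, a CBS guide and a puromycin resistance gene was used, and surviving cells were collected after puromycin. Whether a single clone was picked is not stated. The WT cells are not described as infected or as given puromycin, so the knockout, the virus and the drug cannot be told apart.

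Cells enter mitosis when CDK1, bound to cyclin A and cyclin B, is switched on by CDC25 phosphatases. Polo and Aurora kinases then build the spindle, the checkpoint holds the cell until each kinetochore is attached, and the anaphase-promoting complex starts separation by marking securin and cyclin B for destruction. Most of these genes are transcribed late in the cell cycle under the MuvB complex with B-MYB and FOXM1, which acts through the cell cycle genes homology region (CHR), a short element that the MuvB subunit LIN54 binds, and through CCAAT boxes bound by NF-Y. In the gut epithelium such transcripts mark the dividing cells of the crypt.

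The promoters of the 52 genes were read from RefSeq (GRCh38.p14) as windows of 300 bases, 250 before and 50 after each annotated start, which were at hand for 45 of the genes in 57 windows. The 120 bases before the start are shown for 7 genes, chosen because they show how the same elements stand in genes whose transcripts went different ways: ESPL1, MKI67 and PLK1 fell in CBS KO, NEK2, ANLN and KIF18A were called higher, and CCNB2 was not called. Capitals mark TTTGAA, the common form of the CHR, and CCAAT, each on either strand (TTCAAA and ATTGG on the other one).
ESPL1 chr12:53268179-53268298, plus strand: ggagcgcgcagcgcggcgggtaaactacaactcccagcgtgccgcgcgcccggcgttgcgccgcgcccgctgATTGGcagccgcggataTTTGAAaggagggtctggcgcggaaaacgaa
MKI67 chr10:128126424-128126543, minus strand: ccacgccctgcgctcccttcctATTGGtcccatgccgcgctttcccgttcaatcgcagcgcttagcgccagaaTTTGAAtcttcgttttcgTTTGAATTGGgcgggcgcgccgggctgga
PLK1 chr16:23678769-23678888, plus strand: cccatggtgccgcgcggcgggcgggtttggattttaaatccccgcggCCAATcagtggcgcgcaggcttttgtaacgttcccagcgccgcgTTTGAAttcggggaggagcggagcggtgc
NEK2 chr1:211675622-211675741, minus strand: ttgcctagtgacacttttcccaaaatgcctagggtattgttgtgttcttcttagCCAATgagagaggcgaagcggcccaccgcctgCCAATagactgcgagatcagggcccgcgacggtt
ANLN chr7:36389742-36389861, plus strand: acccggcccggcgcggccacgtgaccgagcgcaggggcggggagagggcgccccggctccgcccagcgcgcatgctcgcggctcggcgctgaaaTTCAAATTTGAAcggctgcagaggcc
KIF18A chr11:28108157-28108276, minus strand: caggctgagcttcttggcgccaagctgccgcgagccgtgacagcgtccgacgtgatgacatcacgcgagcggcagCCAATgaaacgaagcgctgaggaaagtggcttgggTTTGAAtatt
CCNB2 chr15:59105026-59105145, plus strand: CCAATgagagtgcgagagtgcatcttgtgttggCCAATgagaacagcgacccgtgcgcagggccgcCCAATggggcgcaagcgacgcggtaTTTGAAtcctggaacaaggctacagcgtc

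In ESPL1, PLK1 and CCNB2 the hexamer began 31, 29 and 29 bases before the start, downstream of a CCAAT box. MKI67 held 2 hexamers, at 47 and 29 bases, and the second shares a base with a reversed CCAAT box. ANLN held 2 hexamers on opposite strands, at 26 and 20 bases, with no CCAAT box in this stretch, NEK2 held 2 CCAAT boxes and no hexamer in it, and KIF18A held a hexamer at 10 bases and a CCAAT box at 45 bases. Over the whole windows TTTGAA was found in 33 of the 45 genes (73.3%), against 13.8% of the 10523 tested genes that had a window. By window it was present in 36 of 57 (63.2%), against 15.2% of all 35116 promoter windows of this length. Its rarer form TTCGAA was present in 3 of the 45 genes. A CCAAT box was present in 36 of the 45 genes (80.0%), against 43.5% of tested genes. Both elements were present in 26 genes (57.8%), against 7.66%, counted per gene and so not always in the same window. The same window held both in 28 of 57 (49.1%), against 4.32% of the windows of tested genes. In 21 genes TTTGAA began within the last 50 bases before the start (46.7%, against 2.48% of tested genes). A list of 42 DNA replication and G1/S genes, of which 37 had a window, held TTTGAA in 1 gene and CCAAT in 21. These matches describe letters and not bound sites.

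The libraries held 13482767, 12805180 and 14307287 estimated counts in CBS KO replicates 1, 2 and 3 and 16176745, 16097680 and 16171550 in WT replicates 1, 2 and 3. CBS itself stood at 24.6, 18.5 and 25.4 CPM in CBS KO, against 48.8, 53.0 and 50.6 CPM in WT (log2 fold change -1.15, SE 0.0955, edgeR adjusted p = 1.18e-08), which goes the way of the labels, although how its reads were split with the near-identical copy CBSL is not known. Of 10 colon epithelial markers 9 were detected well enough to test, of which 6 were called higher and 2 lower, while CDX1 was at or near 0 in every library. The largest changes among them were in GPA33, with 102 ± 11.7 CPM in CBS KO and 13.2 ± 1.44 CPM in WT, and CDX2, with 76.8 ± 1.46 CPM in CBS KO and 294 ± 8.58 CPM in WT, and EPCAM had 1122 ± 21.5 CPM in CBS KO and 528 ± 11.2 CPM in WT (SD, n = 3 each). LGALS4, 1 of the 6 called higher (2.33-fold), was also very low, with 1.74 ± 1.03 CPM in CBS KO and 0.749 ± 0.283 CPM in WT. The summed level of the colon markers was 8232 to 9072 CPM in CBS KO and 6550.0 to 7159 CPM in WT. Of 11 markers of blood, vessel and stroma 10 were analysed here, PTPRC and COL1A2 were at or near 0, and 5 of the 6 tested were lower in CBS KO. Their summed level was 192 to 208 CPM in CBS KO and 238 to 268 CPM in WT, and without COL1A1 19.3 to 20.2 CPM in CBS KO and 57.6 to 60.8 CPM in WT. The part of either marker list in the results was not tested. Levels of a gene are compared between libraries as CPM, its counts relative to the library total after edgeR's TMM scaling, which aligns libraries on the bulk of their genes. A call means an adjusted p under 0.05 in edgeR's quasi-likelihood test, with Benjamini-Hochberg adjustment over 13028 genes. Of all genes tested, 77.2% were called (38.4% higher and 38.9% lower in CBS KO). These shares are the background for each count of calls over a list given below. The scaling matters for small changes and for some larger ones, such as those of CDK1 and PTTG1. Over all genes the log2 fold change had a median of -0.011 under TMM, 0.0031 under median-ratio factors, -0.36 when only the library total was used, -0.32 in FPKM and -0.54 in TPM. FPKM and TPM are the authors' length-normalised values, compared by limma as log2(value + 1). Whether replicate libraries stem from separate cultures is not stated, and p-values therefore reflect the spread between these samples alone, which may be technical. Fewer dividing cells and less of a transcript in each dividing cell cannot be told apart in bulk RNA.

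Among the 52 mitosis and kinetochore genes, 27 fell in CBS KO, 17 were called higher and 8 were not called (edgeR, Benjamini-Hochberg adjusted p under 0.05). The share called, 84.6%, was near the 77.2% of all genes, and the share lower was 51.9%, against 38.9% of all genes and 36.9% of the 7762 genes at least as abundant as the least abundant of the 52. The median log2 fold change was -0.21 against -0.011 for all genes, with extremes at ESPL1 (-1.74) and NEK2 (1.05). With TMM, called changes of 2-fold or more were found in 3 of 52 genes (5.77%), namely ESPL1, NCAPH and NEK2, against 23.5% of all genes and 17.2% of those 7762 genes. This count depends on the scaling: it was 3 under median-ratio factors (23.5% of all genes), 10 by library total (19.2%, against 28.3% of all genes), 9 in FPKM (17.3%, against 19.8%) and 16 in TPM (30.8%, against 28.8%). In 46 of the 52 genes the CPM ranges of the groups did not overlap (28 lower, 18 higher), as in 79.1% of all genes (40.1% lower, 38.9% higher).

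The lower calls held under each of the 5 scalings tried, and most of the higher calls did not. Median-ratio factors nearly match TMM, while library totals, FPKM and TPM move the median of all genes down (-0.36, -0.32 and -0.54). Lower calls were thus favoured in advance, and their persistence does not make them firmer than the higher calls. Under TMM, median-ratio factors, library totals, FPKM and also TPM, the same 27 genes were called lower, against 39.0% of the 11849 genes tested in all 5. Only NEK2 and MAD2L1 were called higher under all 5, against 15.2% of those genes. Relative to the median of all genes in the same scaling, 22 of the 52 genes lay above it under TMM, 22 by library total, 21 in FPKM and 21 in TPM. The 52 genes together took 0.619, 0.573 and 0.557% of the counts in the CBS KO libraries, against 0.781, 0.809 and 0.834% in the WT libraries, with no overlap. Such shares rest on the library total, under which most genes shift downward. On that scale the median log2 fold change was -0.57 for the 52 genes and -0.36 for all genes, so much of this fall is shared.

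**Figure D1:**
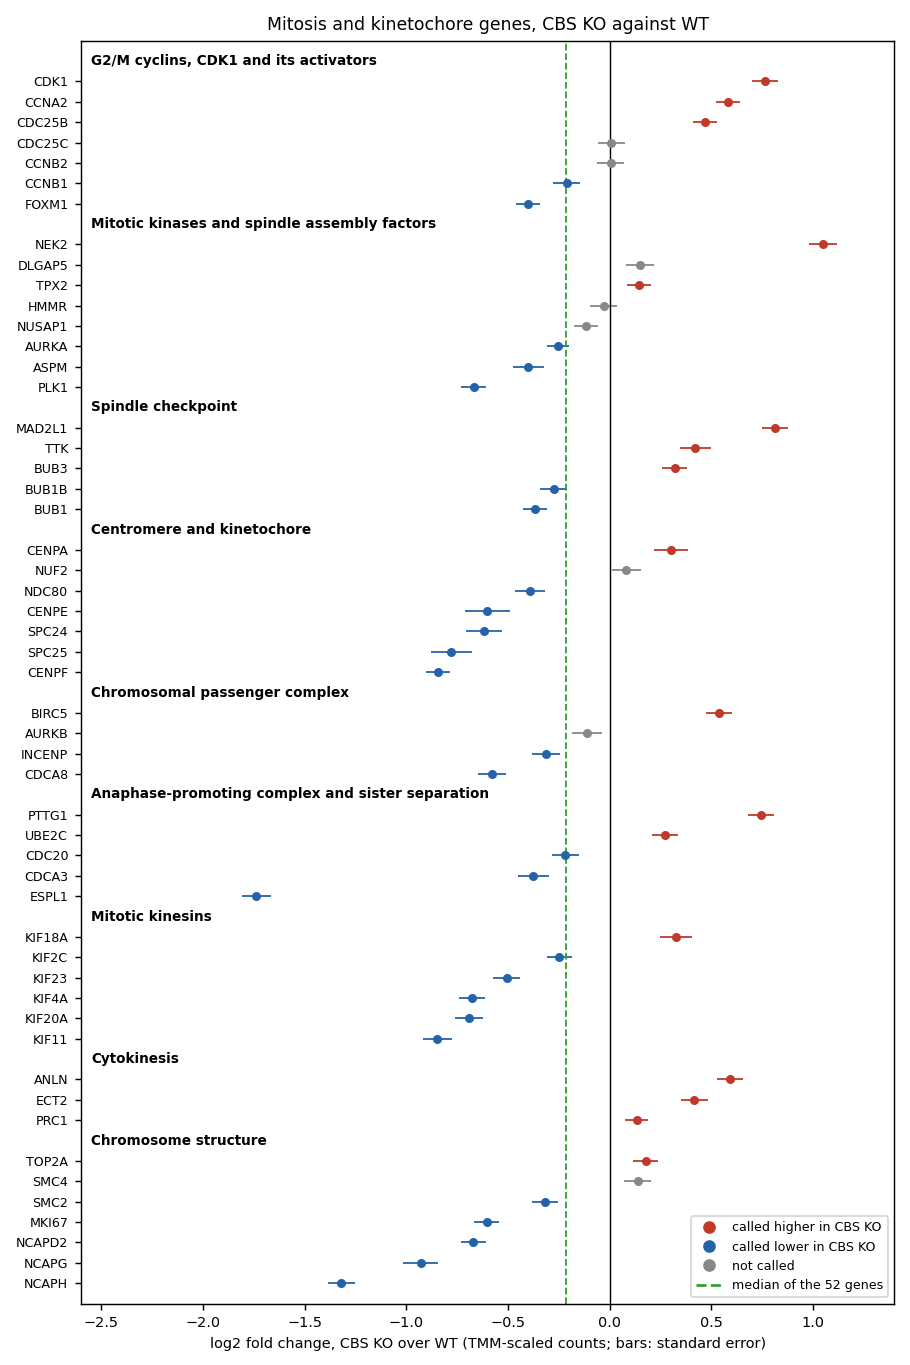
Log2 fold change of each of the 52 genes (x axis, CBS KO over WT, TMM-scaled counts, bars are standard errors) by role, coloured by the call of edgeR's quasi-likelihood test. ESPL1 stands at -1.74 and NCAPH at -1.32 on the lower side, NEK2 at 1.05 on the higher side, and the median (dashed) at -0.21.

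**Figure D2:**
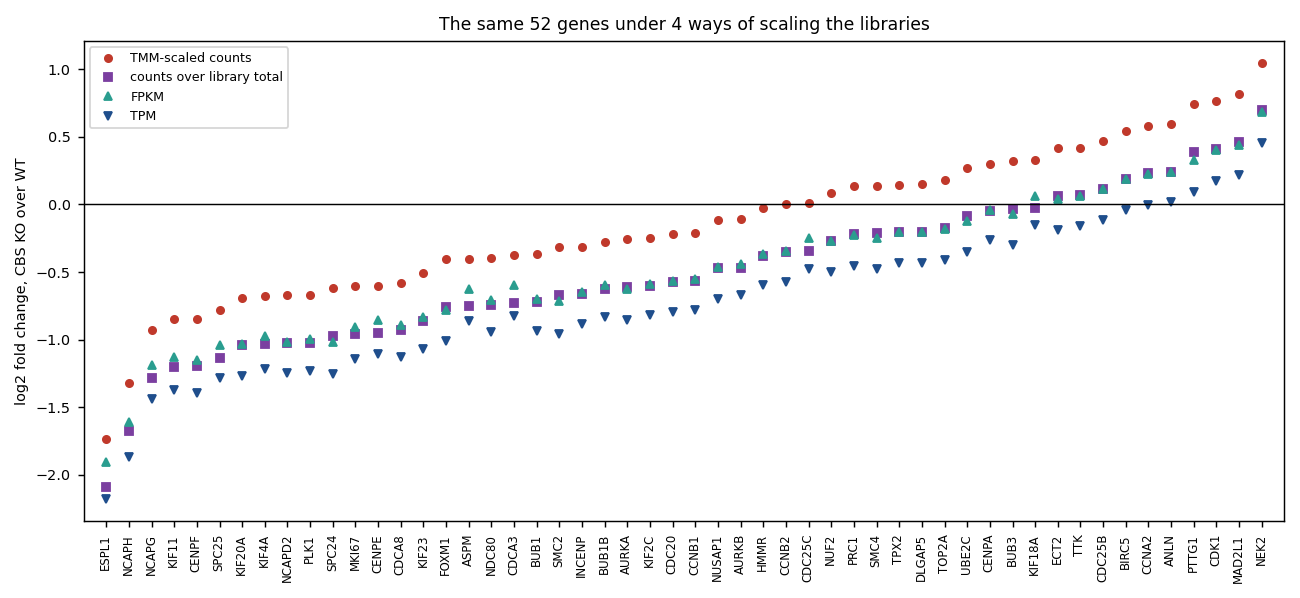
Log2 fold change (y axis, CBS KO over WT) of the 52 genes, ordered by their value with TMM, under TMM (circles), the library total (squares), FPKM (triangles up) and TPM (triangles down). Values shift downward together, the median of the 52 genes being -0.21 with TMM and -0.79 with TPM, and with TPM only NEK2 (0.46) and MAD2L1 (0.22) are called higher.

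The kinase and cyclins of mitotic entry did not move as one. CDK1, the kinase that drives entry into mitosis, had 274, 238 and 235 CPM in CBS KO, against 143, 145 and 152 CPM in WT (log2 fold change 0.76, SE 0.0642, edgeR adjusted p = 1.27e-08). CCNA2, the cyclin A of S and G2 phase, had 156, 146 and 151 CPM in CBS KO, against 97.7, 98.4 and 106 CPM in WT (log2 fold change 0.58, SE 0.0594, edgeR adjusted p = 1.43e-07). Every CBS KO library lay above every WT library for both genes, but with TPM the log2 fold change of CDK1 was 0.17 and not called (adjusted p = 0.0814, limma), and that of CCNA2 was -0.0030. CCNB1, the main mitotic cyclin, had 163, 151 and 169 CPM in CBS KO, against 172, 185 and 202 CPM in WT (log2 fold change -0.21, SE 0.0661, edgeR adjusted p = 0.00837). Its fall was small, and it was no longer called without CBS KO replicate 2 (adjusted p = 0.0568, edgeR) or WT replicate 3 (adjusted p = 0.0608, edgeR). CCNB2, the second B-type cyclin, had 82.0, 87.7 and 86.1 CPM in CBS KO, against 79.5, 90.7 and 84.7 CPM in WT, with overlapping groups (log2 fold change 0.0046, SE 0.0661, edgeR adjusted p = 0.952). CCNB2 was called lower by library total (-0.35), in FPKM (-0.34) and in TPM (-0.57). CDC25B, a phosphatase that activates CDK1 in G2, was called higher with TMM (log2 fold change 0.47, against -0.11 with TPM), and CDC25C, its relative at mitotic entry, was not called (0.0078, adjusted p = 0.92 by edgeR), though it was called lower with the library total (-0.35), FPKM (-0.25) and TPM (-0.48). FOXM1, the transcription factor of late cell cycle genes, fell, with 194, 178 and 198 CPM in CBS KO, against 248, 245 and 260.0 CPM in WT (log2 fold change -0.40, SE 0.0583, edgeR adjusted p = 8.97e-06).

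Of the mitotic kinases and spindle assembly factors 3 fell, 2 were called higher and 3 were not called. PLK1, the Polo kinase of mitotic entry and spindle poles, fell 1.59-fold, with 62.2, 60.8 and 63.0 CPM in CBS KO, against 95.1, 99.2 and 101 CPM in WT (log2 fold change -0.67, SE 0.0616, edgeR adjusted p = 4.09e-08). AURKA, the Aurora kinase of the spindle poles, had 205, 200.4 and 206 CPM in CBS KO, against 236, 251 and 243 CPM in WT (log2 fold change -0.26, SE 0.0537, edgeR adjusted p = 0.00039). Like every lower call among the 52 genes, those of both kinases held under each of the 5 scalings, with values of -1.23 and -0.86 with TPM. Library totals, FPKM and TPM favour lower calls, so this adds no firmness. NEK2, a kinase that splits the centrosomes, went the other way and rose 2.07-fold, with 139.9, 126 and 117 CPM in CBS KO, against 59.7, 62.0 and 63.2 CPM in WT (log2 fold change 1.05, SE 0.0706, edgeR adjusted p = 8.05e-10). Its lowest CBS KO library was above its highest WT library, and it stayed higher with TPM (0.46). TPX2, which activates AURKA on the spindle, averaged 446 ± 23.6 CPM in CBS KO and 403 ± 11.8 CPM in WT and had a small higher call (log2 fold change 0.15, SE 0.0599, edgeR adjusted p = 0.0361) that disappeared without CBS KO replicate 1 (adjusted p = 0.16), WT replicate 1 (adjusted p = 0.139) or WT replicate 2 (adjusted p = 0.135, each by edgeR) and was reversed to a lower call by library total (-0.21), in FPKM (-0.21) and in TPM (-0.44). ASPM, a spindle pole protein, fell (log2 fold change -0.40, SE 0.0764). HMMR, a spindle and hyaluronan-binding protein, had 79.8, 78.0 and 71.4 CPM in CBS KO, against 75.6, 78.2 and 80.0 CPM in WT, with overlapping groups, and was not called (log2 fold change -0.029, SE 0.0652, edgeR adjusted p = 0.693), but it was called lower by library total (-0.38), in FPKM (-0.37) and in TPM (-0.60). The microtubule binder NUSAP1 (-0.12) was not called with TMM and was called lower by library total (-0.47), in FPKM (-0.47) and in TPM (-0.70). DLGAP5, another microtubule binder, was not called with TMM (0.15). It was called higher without CBS KO replicate 3 (adjusted p = 0.00401, edgeR) and with median-ratio factors (0.16, adjusted p = 0.0378, edgeR), but lower by library total (-0.20), in FPKM (-0.21) and in TPM (-0.44).

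**Figure D3:**
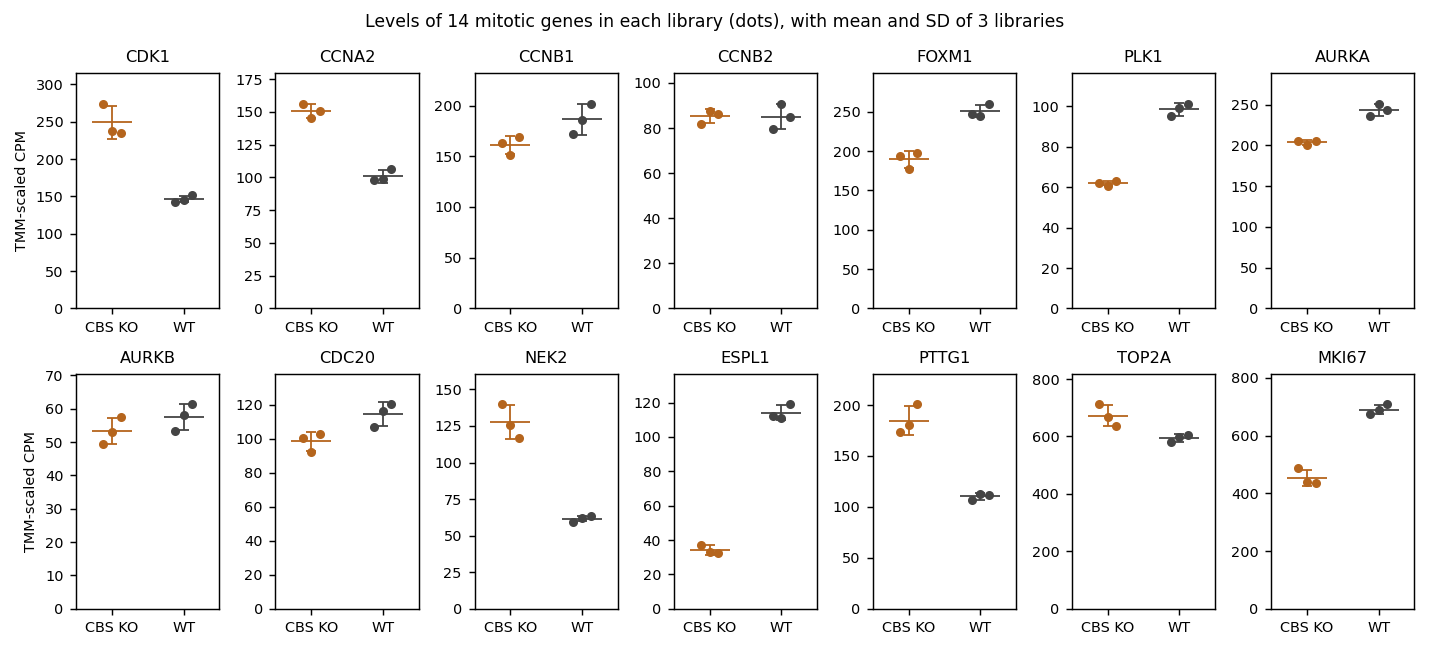
Levels of 14 of the genes (y axis, TMM-scaled CPM from 0, 1 dot per library, horizontal mark and bar for mean and SD of 3 libraries) in CBS KO (left) and WT (right). On this scale CDK1, CCNA2, NEK2 and PTTG1 lie higher in each CBS KO library (CCNA2 is at a log2 fold change of -0.0030 with TPM), PLK1, ESPL1 and MKI67 lower, and CCNB2 and AURKB overlap.

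The spindle checkpoint was divided, with 3 of its 5 genes called higher and 2 lower. MAD2L1, the checkpoint protein MAD2 that sequesters CDC20, rose, with 122, 115 and 113 CPM in CBS KO, against 62.3, 67.9 and 68.9 CPM in WT (log2 fold change 0.81, SE 0.0641, edgeR adjusted p = 5.82e-09). TTK, the checkpoint kinase MPS1, had 42.0, 37.3 and 39.8 CPM in CBS KO, against 28.6, 28.7 and 31.7 CPM in WT (log2 fold change 0.42, SE 0.0758, edgeR adjusted p = 8.79e-05). The groups of both genes are apart, and TPM left MAD2L1 higher at 0.22 but put TTK at -0.16. BUB1B, the checkpoint protein BUBR1, fell, with 61.5, 58.5 and 60.4 CPM in CBS KO, against 69.3, 73.5 and 75.6 CPM in WT (log2 fold change -0.28, SE 0.0648, edgeR adjusted p = 0.00103). BUB1, the kinase that recruits it, fell alike (-0.37, SE 0.0586). BUB3, the adaptor that both BUB1 and BUBR1 bind, was called higher (0.32), against -0.035 by library total, -0.069 in FPKM and -0.30 in TPM, the last called lower. Reads of BUB1B and of the readthrough gene BUB1B-PAK6, which the table lists apart, may have been shared.

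Centromere and kinetochore genes fell in 5 of 7 cases (71.4%, against 38.9% of all genes). CENPF, a large protein of the outer kinetochore corona, had 197, 189.9 and 179.9 CPM in CBS KO, against 320.2, 345 and 353 CPM in WT (log2 fold change -0.85, SE 0.0597, edgeR adjusted p = 1.45e-09). SPC25, a subunit of the Ndc80 complex that holds microtubules, had 12.6, 16.2 and 16.7 CPM in CBS KO, against 26.8, 24.3 and 26.9 CPM in WT (log2 fold change -0.78, SE 0.101, edgeR adjusted p = 2.36e-06). In both genes each CBS KO library stood below each WT library. The other Ndc80 subunits SPC24 (-0.62) and NDC80 (-0.39) fell as well, as did CENPE, the kinesin of the corona (-0.60). NUF2, the fourth subunit, had 32.4, 33.3 and 33.0 CPM in CBS KO, against 30.1, 31.5 and 31.6 CPM in WT and was not called (log2 fold change 0.082, SE 0.0700, edgeR adjusted p = 0.291), but was called lower with the library total (-0.27), FPKM (-0.27) and TPM (-0.50). CENPA, the histone H3 variant that marks the centromere, averaged 30.6 ± 3.03 CPM in CBS KO and 24.9 ± 0.634 CPM in WT and was called higher with TMM (0.30, adjusted p = 0.00331, edgeR), against -0.052 by library total, -0.040 in FPKM and -0.27 in TPM, the last called lower.

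The chromosomal passenger complex, which corrects wrong attachments, was uneven across its 4 subunits. BIRC5, the survivin subunit, had 145, 149.9 and 160.5 CPM in CBS KO, against 99.9, 101 and 112 CPM in WT (log2 fold change 0.54, SE 0.0639, edgeR adjusted p = 8.38e-07). CDCA8, the borealin subunit, had 45.7, 43.9 and 43.1 CPM in CBS KO, against 62.8, 67.0 and 68.3 CPM in WT (log2 fold change -0.58, SE 0.0676, edgeR adjusted p = 7.22e-07). The first was higher in each CBS KO library and the second lower, and with TPM BIRC5 stood at -0.043 and CDCA8 at -1.13. AURKB, the kinase of the complex, had 49.5, 52.9 and 57.5 CPM in CBS KO, against 53.4, 58.0 and 61.3 CPM in WT, with overlapping groups (log2 fold change -0.11, SE 0.0760, edgeR adjusted p = 0.189). It was called lower without CBS KO replicate 3 (adjusted p = 0.0184, edgeR) and also by library total (-0.47), in FPKM (-0.44) and in TPM (-0.67). INCENP, the scaffold, fell (-0.31).

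Separase and its inhibitor moved apart. ESPL1, the protease separase that cuts cohesin at anaphase, fell 3.34-fold, the furthest of the 52 genes, with 37.3, 33.0 and 32.3 CPM in CBS KO, against 112, 111 and 119 CPM in WT (log2 fold change -1.74, SE 0.0721, edgeR adjusted p = 2.15e-12). PTTG1, the securin that holds separase inactive, had 173, 180.2 and 201 CPM in CBS KO, against 106, 113 and 112 CPM in WT (log2 fold change 0.74, SE 0.0634, edgeR adjusted p = 1.5e-08). Neither gene's groups overlap, and with TPM the values were -2.18 for ESPL1 and 0.094 for PTTG1, PTTG1 not being called (adjusted p = 0.0737, limma). RefSeq names 2 pseudogenes of PTTG1, and also 4 of NEK2, 1 of MAD2L1 and 5 of UBE2C. Genes that fell have them too, among them AURKA and NCAPG with 2 each and MKI67, NCAPD2, CDC20, BUB1 and CDCA3 with 1 each. The assignment of the reads of all these genes is therefore uncertain. CDC20, the activator of the anaphase-promoting complex, fell a little, with 100.4, 92.2 and 103 CPM in CBS KO, against 107, 116 and 120.3 CPM in WT (log2 fold change -0.22, SE 0.0660, edgeR adjusted p = 0.00673). UBE2C, the ubiquitin-conjugating enzyme of that complex, averaged 207 ± 15.0 CPM in CBS KO and 171 ± 7.44 CPM in WT and was called higher with TMM (0.27), against -0.083 with the library total and called lower with FPKM (-0.12) and TPM (-0.35). CDCA3, a trigger of mitotic entry that acts with a ubiquitin ligase, fell (-0.37).

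Of 6 mitotic kinesins 5 fell (83.3%, against 38.9% of all genes). KIF11, the motor that pushes spindle poles apart, had 57.8, 56.6 and 48.6 CPM in CBS KO, against 95.6, 96.1 and 101 CPM in WT (log2 fold change -0.85, SE 0.0724, edgeR adjusted p = 1.59e-08). KIF20A, a motor of the central spindle, had 129.9, 105 and 119 CPM in CBS KO, against 187, 197 and 187 CPM in WT (log2 fold change -0.69, SE 0.0696, edgeR adjusted p = 1.22e-07). The chromosome motor KIF4A (-0.68) and the midzone motor KIF23 (-0.51) fell by less. Like every lower call among the 52 genes, the 5 of this group held under all 5 scalings. Library totals, FPKM and TPM favour lower calls, so this does not make the falls firmer. KIF2C, a microtubule depolymerase at centromeres, had 90.2, 89.6 and 92.8 CPM in CBS KO, against 106, 104 and 114 CPM in WT (log2 fold change -0.25, SE 0.0607, edgeR adjusted p = 0.00142), the smallest fall of the group. KIF18A, which dampens chromosome oscillation, averaged 29.2 ± 2.26 CPM in CBS KO and 23.3 ± 0.820 CPM in WT and was called higher with TMM (0.33), against -0.026 with the library total and -0.15 with TPM, neither called. KIF4A has a near-identical intronless copy, KIF4B, so the assignment of its reads is uncertain. KIF20A overlaps CDC23 in the annotation and is 1 of 10 among the 52 genes that overlap another listed gene.

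The 3 cytokinesis genes were all called higher with TMM. ANLN, the scaffold anillin of the contractile ring, had 129.8, 128 and 118 CPM in CBS KO, against 77.6, 85.1 and 86.9 CPM in WT (log2 fold change 0.59, SE 0.0653, edgeR adjusted p = 3.6e-07). ECT2, the exchange factor that activates RHOA at the midzone, had 182, 165 and 155 CPM in CBS KO, against 121, 122 and 134 CPM in WT (log2 fold change 0.42, SE 0.0665, edgeR adjusted p = 2.63e-05). Each CBS KO library was above each WT library in both, while TPM gave 0.020 for ANLN and -0.19 for ECT2, neither called. PRC1, the crosslinker of midzone microtubules, had 115, 115 and 117 CPM in CBS KO, against 102, 107 and 108 CPM in WT (log2 fold change 0.13, SE 0.0571, edgeR adjusted p = 0.0439). This call was lost without any 1 of the 6 libraries, with adjusted p = 0.0802, 0.0942 and 0.0716 without CBS KO replicates 1, 2 and 3 and 0.185, 0.102 and 0.0649 without WT replicates 1, 2 and 3 (edgeR), and PRC1 was called lower with the library total (-0.22), FPKM (-0.22) and TPM (-0.45).

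Among the genes of chromosome structure the non-SMC subunits of condensin I, the ring that compacts mitotic chromosomes, fell most. NCAPH, the kleisin that closes the ring, fell 2.50-fold, with 32.0, 31.9 and 32.8 CPM in CBS KO, against 79.0, 79.8 and 82.7 CPM in WT (log2 fold change -1.32, SE 0.0665, edgeR adjusted p = 2.3e-11). NCAPG, a HEAT-repeat subunit, had 44.5, 39.6 and 36.3 CPM in CBS KO, against 69.5, 77.8 and 82.3 CPM in WT (log2 fold change -0.93, SE 0.0844, edgeR adjusted p = 3.35e-08). NCAPD2, the other such subunit, fell by less (-0.67, SE 0.0615), and so did the ATPase SMC2 (-0.32). SMC4, the partner ATPase, had 269, 248 and 219 CPM in CBS KO, against 223, 221 and 225 CPM in WT and was not called (log2 fold change 0.14, SE 0.0670, edgeR adjusted p = 0.0705). It was called higher without CBS KO replicate 3 (adjusted p = 0.000829, edgeR) and with median-ratio factors (adjusted p = 0.0489, edgeR) but lower with the library total (-0.21), FPKM (-0.25) and TPM (-0.48). MKI67, the Ki-67 protein that coats mitotic chromosomes and serves as the common proliferation marker, had 486, 438 and 437 CPM in CBS KO, against 675, 687 and 708 CPM in WT (log2 fold change -0.60, SE 0.0628, edgeR adjusted p = 1.78e-07), with each CBS KO library lower. TOP2A, the topoisomerase that untangles sister chromatids, had 712, 667 and 638 CPM in CBS KO, against 581, 599 and 605 CPM in WT (log2 fold change 0.18, SE 0.0619, edgeR adjusted p = 0.0158). It was no longer called without CBS KO replicate 1 (adjusted p = 0.073), WT replicate 1 (adjusted p = 0.0805) or WT replicate 2 (adjusted p = 0.0591, each by edgeR), and it was called lower with the library total (-0.18), FPKM (-0.18) and TPM (-0.41). The proliferation markers MKI67 and TOP2A therefore differed in direction with TMM and had the same direction by library total, FPKM and TPM.

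Ratios between the transcripts of partner proteins within a library do not depend on how libraries are scaled, and 17 such ratios of TPM values, chosen after the values were seen, were compared. The ratio of PTTG1 to ESPL1 was 67.8, 78.1 and 88.0 in CBS KO, against 14.0, 15.1 and 13.8 in WT, which is 5.42-fold higher. Within condensin I the ratio of NCAPH to SMC4 was 0.199, 0.206 and 0.242 in CBS KO, against 0.577, 0.581 and 0.610 in WT (log2 difference -1.46), and the ratios of NCAPG, NCAPD2 and SMC2 to SMC4 differed by -1.01, -0.77 and -0.52. SMC4 had the highest log2 fold change of these subunits, so with SMC4 as denominator all 4 ratios had to fall. In the Ndc80 complex the ratios of SPC25, SPC24 and NDC80 to NUF2 differed by -0.80, -0.79 and -0.46. Among passenger subunits the ratio of CDCA8 to BIRC5 was 0.326 ± 0.0261 in CBS KO and 0.703 ± 0.0296 in WT (SD, n = 3 each), and those of INCENP and AURKB to BIRC5 differed by -0.87 and -0.63. For the cyclins, CCNB1 over CDK1 was 0.550, 0.587 and 0.666 in CBS KO, against 1.10, 1.17 and 1.22 in WT, CCNB2 over CDK1 differed by -0.75, and CCNA2 over CDK1 by -0.17, the smallest of the 17. The ratio of TPX2 to AURKA was higher by 0.42, and those of BUB1 and BUB1B to BUB3 were lower, at -0.65 and -0.56. In all 17 the 3 libraries of CBS KO lay apart from the 3 of WT, for which an exact two-sided permutation test gives p = 0.1 (0.1 also after adjustment over the 17), the smallest value that 3 against 3 libraries allow. Since 79.1% of single genes were apart in the same way, such separation is common in these libraries, and pairs chosen after the values were seen cannot test it. Like SMC4, the denominators NUF2, BIRC5, CDK1 and BUB3 had the highest log2 fold change among the genes they were compared with. The direction of those ratios therefore follows from the choice of denominator.

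**Figure D4:**
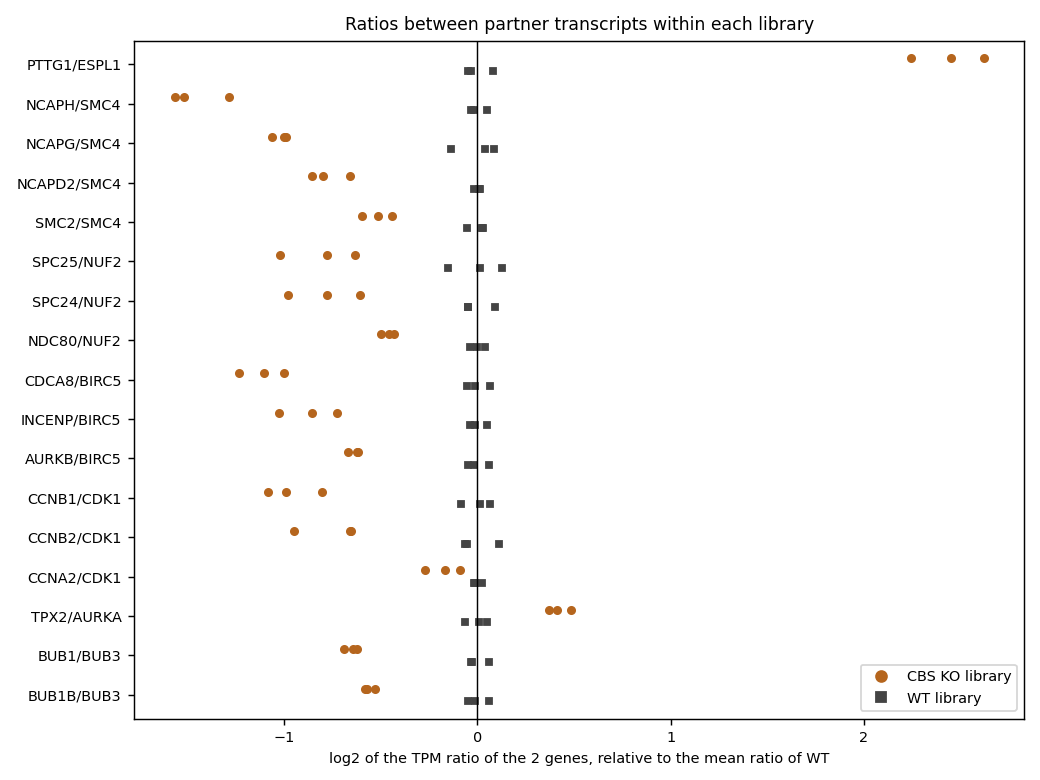
TPM ratio of 2 partner transcripts in each library (x axis, log2 relative to the mean ratio of WT), with CBS KO libraries as circles above WT libraries as squares in each row. PTTG1 over ESPL1 lies furthest right (log2 difference 2.44) and NCAPH over SMC4 furthest left (-1.46).

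Per length, the most abundant of the 52 transcripts was UBE2C in both groups, with 521 ± 16.1 TPM in CBS KO and 666 ± 26.5 TPM in WT (SD, n = 3 each), followed by PTTG1 with 511 ± 7.89 TPM in CBS KO and 478 ± 15.9 TPM in WT. The gap between UBE2C and PTTG1 was within the spread of the libraries in CBS KO and beyond it in WT. The lowest in CBS KO was ESPL1, with 6.63 ± 0.921 TPM in CBS KO and 33.5 ± 1.35 TPM in WT, next to CENPE, with 7.07 ± 1.82 TPM in CBS KO and 16.1 ± 0.482 TPM in WT. The lowest in WT was KIF18A, with 12.4 ± 1.11 TPM in CBS KO and 13.8 ± 0.451 TPM in WT. In WT, CENPE, TTK, MAD2L1, SMC2, ASPM and KIF23 also stood below ESPL1. By library ESPL1 had 7.63, 6.43 and 5.82 TPM in CBS KO, against 33.0, 32.5 and 35.0 TPM in WT, and CENPE had 8.68, 7.43 and 5.10 TPM in CBS KO, against 15.6, 16.2 and 16.5 TPM in WT, so that these neighbours overlap in CBS KO and lie apart in WT.

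The other genes of the pathway were described from 8 lists of 124 mitotic genes that are not among the 52. Of these 35 were called higher, 64 lower and 25 not called with TMM, with a median log2 fold change of -0.21, the same as that of the 52 genes. The share called was 79.8%, near the background, with 28.2% higher and 51.6% lower, against 38.4% and 38.9% of all genes. Other outer kinetochore genes fell in 13 of 18 cases (72.2%) and 2 were higher (11.1%). MAD1L1, the checkpoint partner of MAD2, was 2.24-fold lower, SPDL1, an adaptor of dynein, 2.02-fold and MAD2L1BP, which disassembles MAD2 complexes, 1.92-fold. The constitutive centromere network had 3 of 19 genes higher and 7 lower, with CENPM 2.32-fold and CENPO 1.55-fold lower. The 3 subunits particular to condensin II were all lower, NCAPH2 by 1.51-fold.

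Subunits and regulators of the anaphase-promoting complex split, with 7 of 17 higher and 8 lower. UBE2S, the enzyme that extends ubiquitin chains on its targets, averaged 346 ± 21.4 CPM in CBS KO and 121 ± 5.93 CPM in WT (log2 fold change 1.52, adjusted p = 1.86e-12, edgeR). The catalytic cullin ANAPC2 fell 2.76-fold, and the scaffold subunits ANAPC5 and ANAPC4 fell 2.19-fold and 2.14-fold. ANAPC10 and CDC26 were called higher, at 1.69-fold and 1.63-fold, but with TPM, and for ANAPC10 with FPKM too (0.17), the call was lost: ANAPC10 stood at a log2 fold change of -0.045 and CDC26 at 0.11 in TPM. In cohesin and its regulators 5 of 15 were higher and 5 lower, with the core ATPase SMC1A at 1.93-fold lower, MAU2, a loader subunit, at 1.69-fold, PDS5B at 1.68-fold and STAG2 at 1.56-fold higher (0.013 on the log2 scale with TPM).

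Of 14 other regulators of mitotic entry 8 were higher and 5 lower. The CDK-binding proteins CKS2 and CKS1B rose 2.73-fold and 2.26-fold, and WEE1, the kinase that holds CDK1 inactive, rose 1.91-fold, with 121, 112 and 102 CPM in CBS KO, against 57.5, 58.1 and 58.9 CPM in WT. CCNF, the cyclin F of a ubiquitin ligase, fell 2.05-fold, the histone kinase HASPIN 2.00-fold and CDC25A 1.63-fold. Other kinesins, spindle and centrosome genes fell in 18 of 28 cases and were higher in 6, with HAUS7 2.70-fold and CEP192 2.26-fold lower, KIF24 at a log2 fold change of -1.07 and HAUS6 1.62-fold higher. Of 10 other cytokinesis genes 4 were higher and 5 lower, with CEP55, which recruits the abscission machinery, 1.89-fold higher and DEPDC1B 1.64-fold lower. Of the MuvB, E2F, pocket protein and NF-Y genes 5 of 21 were higher and 11 lower, with RBL1, E2F2 and E2F8 1.69-fold, 1.59-fold and 1.58-fold lower and LIN54, the CHR-binding subunit, 1.65-fold higher. TPM left neither HAUS6 (0.10 on the log2 scale) nor LIN54 (0.13) called.

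The DNA replication and G1/S list was lower in 32 of 42 cases (76.2%, against 38.9% of all genes) and higher in 5 (11.9%, against 38.4%). Its median log2 fold change was -0.69, against -0.21 for the 52 mitosis and kinetochore genes and -0.011 for all genes. The helicase subunits MCM2, MCM3 and MCM5 fell 3.68-fold, 3.55-fold and 3.32-fold, while CCNE1, the cyclin E of S phase entry, rose 1.81-fold and RRM2, a subunit of ribonucleotide reductase, was called 1.62-fold higher (0.12 on the log2 scale with TPM, not called). Without CBS KO replicate 1 or without WT replicate 1, 3 of this list were higher. Among the 42 genes 16 (38.1%) had called changes of 2-fold or more with TMM and 27 (64.3%) with TPM. Of the 52 mitosis and kinetochore genes 3 (5.77%) and 16 (30.8%) did, and of all genes 23.5% and 28.8%. These differences were not tested. Of 13 cyclins, CDKs and CDK inhibitors of G1, 10 were higher (76.9%, against 38.4% of all genes) and 3 lower (23.1%, against 38.9%). The inhibitor CDKN2D was 5.99-fold, CCND2 4.66-fold and CDKN2B 4.52-fold higher, and CDKN2C 1.84-fold and CDK4 1.68-fold lower. With TPM 6 of the 13 were higher and 5 lower.

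By promoter element, of the 33 with TTTGAA in a window 8 were called higher, 18 lower and 7 not called, with a median log2 fold change of -0.28, and of the 12 with a window but without it 4 were higher, 7 lower and 1 not called, with a median of -0.23. The 7 genes with no window at hand, 5 of them higher and 2 lower with a median of 0.27, stand outside these counts. Of the 21 with the hexamer in the last 50 bases before the start 5 were higher and 13 lower (median -0.32). Among all genes tested 38.4% were called higher and 38.9% lower, and differences between these groups were not tested.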

How the data were processed

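Messenger RNA was measured in 3 CBS KO and 3 WT libraries, prepared per the labels' protocols by oligo(dT) selection and dUTP marking of the second strand. HISAT2 2.2.1, StringTie 2.1.6, cutadapt 1.9, edgeR, DESeq2 and the build GRCh38 are listed in the submitters' processing notes, with no roles. The authors deposited estimated counts per gene, FPKM and TPM in 1 table, per the file headers. How reads were assigned, with or without strand, is not given in the sources used here. RefSeq names pseudogenes for 16 of the 52 genes, and 10 of the 52 overlap another listed gene. These 10 are CCNA2, CDC25C, FOXM1, PLK1, BUB1B, SPC25, CDCA3, KIF20A, ANLN and NCAPG, and the assignment of their reads is uncertain too. The authors' mean columns were not used.

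Counts were rounded, filtered with edgeR's filterByExpr and scaled by TMM. The comparison of CBS KO with WT used robust quasi-likelihood fits in edgeR 4.0.16 under R 4.3.3 with no covariate, and standard errors came from the fold change and its F statistic. Limma 3.58.1 with a trend was run on log2(FPKM + 1) and log2(TPM + 1) for genes of at least 1 in 3 libraries, so these fold changes understate low genes. DESeq2 1.42.0, median-ratio factors, the library total, other filters, an added 0.1, a replicate block and leaving out each library were the alternatives. Same-numbered libraries deviated with correlations of 0.0405, 0.0174 and 0.0220, so the numbers do not pair them. Replicates differed by more than sampling noise, and more so in CBS KO (chi-square per gene 4.00 to 13.2) than in WT (1.97 to 3.50). The highest value was between CBS KO replicates 1 and 3. Values in every library are given for 11 core genes and, in each role, for the 2 called genes with the largest change and the gene with the smallest. Of the other lists up to 3 called genes in each direction with at least 1.5-fold change are named, the 1.5-fold minimum being added after the values were seen. Promoter windows came from RefSeq GRCh38.p14, with none at hand for FOXM1, AURKA, TPX2, BUB3, TTK, BIRC5 and UBE2C. Members, lists and the genes whose promoters are printed were chosen with earlier results of these data known.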

Additional observations from a re-analysis of the deposited data

How the results depend on the processing

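Leaving out 1 library gave 14 to 18 of the 52 genes higher and 26 to 28 lower. Over all genes these fits gave 4744 to 5028 higher and 4818 to 5234 lower calls among 13102 to 13211 tested. The number of genes tested was 13028 with the library total and DESeq2, 11880 in FPKM, 12274 in TPM and 16758 with no filter. The counts below are to be read against these numbers. With the library total there were 2966 higher calls over all genes, 7 higher calls among the 52, 12 higher calls among other mitotic genes and 2 higher calls among DNA replication genes. With limma on log2(FPKM + 1) there were 2722 higher calls over all genes, 7 higher calls among the 52, 16 higher calls among other mitotic genes and 2 higher calls among DNA replication genes. With limma on log2(TPM + 1) there were 1878 higher calls over all genes, 2 higher calls among the 52, 6 higher calls among other mitotic genes, 1 higher call among DNA replication genes, 6 higher calls among G1 regulators, 8294 lower calls over all genes, 41 lower calls among the 52 and 5 lower calls among G1 regulators. With limma on log2(TPM + 0.1) there were 1866 higher calls over all genes, 2 higher calls among the 52, 6 higher calls among other mitotic genes, 1 higher call among DNA replication genes, 6 higher calls among G1 regulators, 8266 lower calls over all genes, 41 lower calls among the 52 and 5 lower calls among G1 regulators. With no filter there were 5077 higher calls over all genes and 3 higher calls among DNA replication genes. With DESeq2 there were 4833 higher calls over all genes and 3 higher calls among DNA replication genes. Leaving out 1 library gave 3 to 5 higher calls among DNA replication genes. Genes that turned to the lower side with the library total had log2 fold changes of CCNB2 -0.35, CDC25C -0.35, TPX2 -0.21, DLGAP5 -0.20, BUB3 -0.035, CENPA -0.052, NUF2 -0.27, UBE2C -0.083, KIF18A -0.026, PRC1 -0.22, TOP2A -0.18 and SMC4 -0.21. Genes that turned to the lower side with limma on log2(FPKM + 1) had log2 fold changes of CCNB2 -0.34, CDC25C -0.25, TPX2 -0.21, DLGAP5 -0.21, BUB3 -0.069, CENPA -0.040, NUF2 -0.27, UBE2C -0.12, PRC1 -0.22, TOP2A -0.18 and SMC4 -0.25. Genes that turned to the lower side with limma on log2(TPM + 1) had log2 fold changes of CCNB2 -0.57, CCNA2 -0.0030, CDC25B -0.11, CDC25C -0.48, TPX2 -0.44, DLGAP5 -0.44, BUB3 -0.30, TTK -0.16, CENPA -0.27, NUF2 -0.50, BIRC5 -0.043, UBE2C -0.35, KIF18A -0.15, PRC1 -0.45, ECT2 -0.19, TOP2A -0.41, SMC4 -0.48 and ANAPC10 -0.045. Genes that turned to the lower side with limma on log2(TPM + 0.1) had log2 fold changes of CCNB2 -0.58, CCNA2 -0.0031, CDC25B -0.12, CDC25C -0.49, TPX2 -0.44, DLGAP5 -0.45, BUB3 -0.30, TTK -0.17, CENPA -0.27, NUF2 -0.51, BIRC5 -0.043, UBE2C -0.35, KIF18A -0.16, PRC1 -0.46, ECT2 -0.19, TOP2A -0.42, SMC4 -0.49 and ANAPC10 -0.046. The cause of these shifts beyond the scaling itself was not tested. CBS was called lower under each alternative run. The numbers of the libraries do not pair them by the labels or the data; with the replicate block 17 of the 52 genes were higher and 27 lower, and over all genes 4986 and 5058, with no call among the 52 lost or gained. DESeq2 with its own size factors also called 17 higher and 27 lower. At this depth 3 counts in a library correspond to 0.164 to 0.264 CPM, far below each of the 52 genes.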

Other observations

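Transcript length was set beside the response of the 52 genes, as a description with no test. Across the 52 genes, which share the same 6 libraries, the log2 fold change and the log length of the longest coding transcript in GENCODE 29 had a Pearson r of -0.277 and a Spearman rho of -0.240, against -0.0946 and -0.0684 across 12955 of the tested genes. Without the 2 genes of most extreme length the r was -0.235. Among the 8 genes under 2000 bases 4 were called higher and 2 lower. Among the 27 genes from 2000 up to 4000 bases 7 were higher and 15 lower, and among the 17 of 4000 bases or more 6 were higher and 10 lower. Over all tested genes 44.0, 36.2 and 37.6% were higher in these 3 classes from short to long, and 30.7, 41.2 and 41.0% lower.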
